A study of Mus musculus with 12 samples.

Results

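Marker genes of the choroid plexus epithelium and of the meningeal fibroblasts, 10 in all, were followed through cerebellar cortex libraries of mice on 3 diets. The 10 symbols were chosen as a list and matched by GENCODE name to the 54752 genes of the deposited count table, and all 10 had counts in each of the 12 libraries. Here 6 are placed with the choroid plexus epithelium (Ttr, Enpp2, Kl, Slc6a13, Slc22a6 and Stra6) and 4 with the meningeal fibroblasts (Dcn, Lum, Ogn and Aldh1a2). The mice were wild-type (WT) F1 hybrid C57BL6J/FVB males aged 12 weeks, 4 fed ad libitum (AL), 4 on dietary restriction (DR) and 4 on a ketogenic diet (KD). DR mice received a reduced portion once a day and were killed early in the dark period before that day's meal. The composition of KD is not given in the sources used here. The tissue was a part of the cortex with several folia and no cerebellar nuclei, and AL and DR samples were chosen by RNA quality from a larger number of mice. Poly(A) RNA was sequenced, and between 31712084 and 40798644 reads were counted per library.

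The choroid plexus is a secretory epithelium in the brain ventricles that makes cerebrospinal fluid, and one of its sheets lies in the fourth ventricle beside the cerebellum. The meninges wrap the folia, and their fibroblasts lay down collagens and small leucine-rich proteoglycans, make retinoic acid and carry solute transporters that clear organic anions and amino acids. The cortex itself holds neither epithelium nor meninges as part of its layers. The 10 genes thus bear on how much adjoining tissue each library held, although in bulk tissue fewer cells of a type and less RNA per cell cannot be told apart.

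Several genes that define the choroid plexus epithelium were close to the limit of detection. Among 30 other genes of this epithelium, compiled from knowledge of the tissue, 16 stayed under 1 TPM (transcripts-per-million, counts divided by gene length and scaled to the same total in each library) in each of the 12 libraries. Folr1, the folate receptor of the epithelium, had 14 counts over all 12 libraries and was at 0 in 5 of them. Kcne2, a potassium channel subunit of its apical membrane, had 27 counts in all and was at 0 in 2. Sostdc1 had 3 counts in all. Folr1, Kcne2 and Sostdc1 were singled out after their values were seen. Other genes of the list had many more reads, among them the anion exchanger gene Slc4a2 (54.6 to 66.9 CPM, counts-per-million of a TMM-scaled library), the transcription factor gene Otx2 (10.5 to 15.4 CPM) and Ace (6.94 to 10.8 CPM), which are also known from other cell types. Meningeal fibroblast genes were detected far more evenly, since 2 of 36 other genes of that list stayed under 1 TPM in each library. Cemip lay at 28.6 to 41.6 CPM, Col1a2 at 22.2 to 30.6 CPM and Itgbl1 at 17.7 to 24.7 CPM. Reads of meningeal genes were thus spread over nearly the whole list, and those of the choroid plexus list over part of it.

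**Figure D1:**
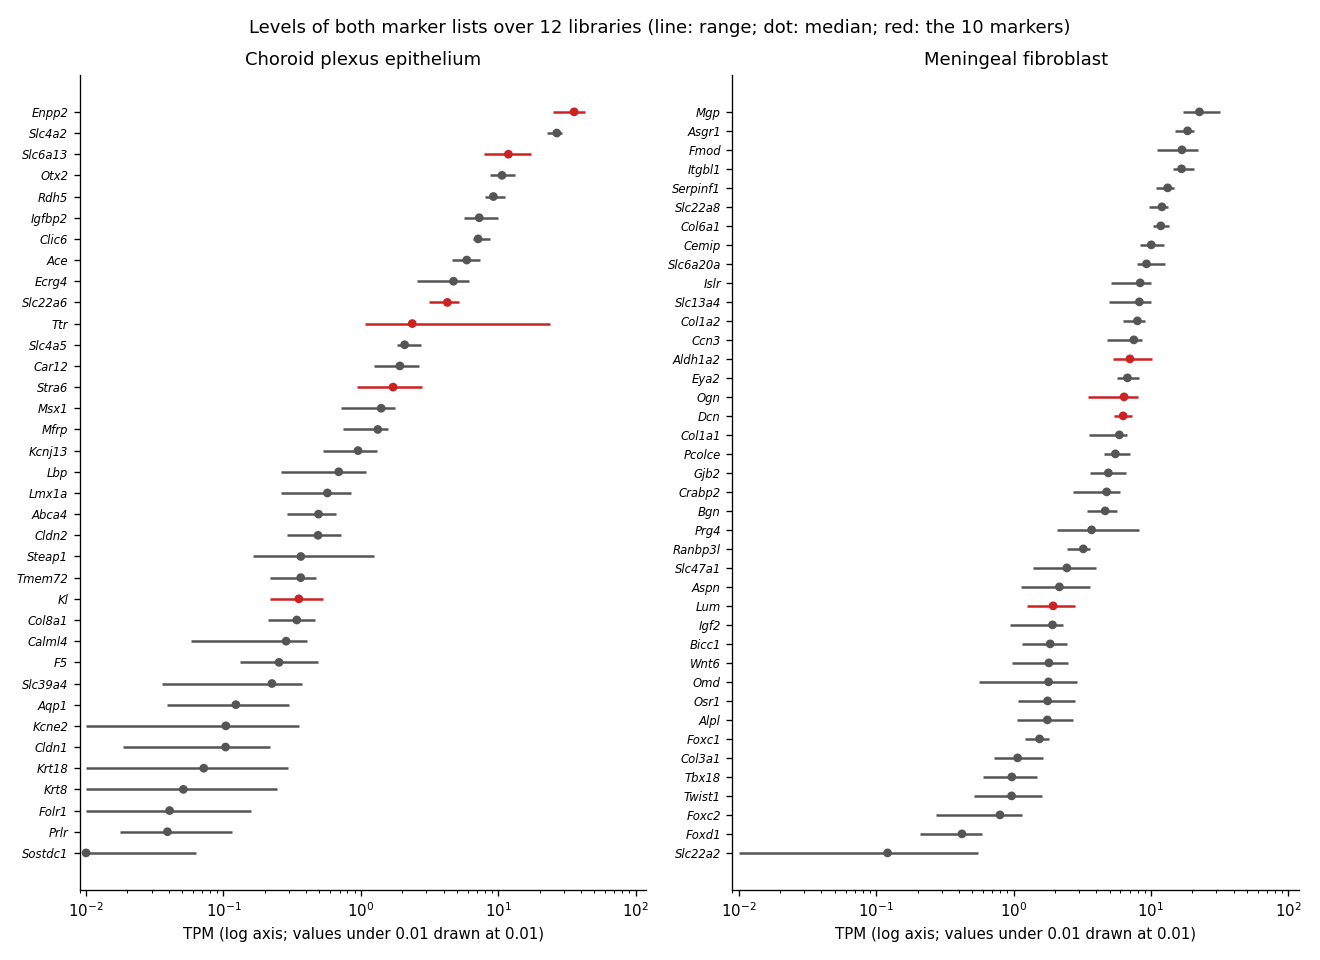
Range (line) and median (dot) over 12 libraries of each gene of both marker lists, in TPM on a log axis, with the 10 markers in red. The choroid plexus list runs down to Sostdc1, with 3 counts in all, whereas 2 of 36 other meningeal genes stay under 1 TPM in every library.

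Promoter sequence was available for 6 of the 10 genes in RefSeq's table for GRCm38.p6, as 11 windows of 300 bases that run from 250 bases before a transcript start to 50 after it. Otx2 encodes a homeodomain factor that the choroid plexus epithelium requires, and the core letters its family binds, TAATCC, were searched on both strands. The letters were found in 2 of the 11 windows, those of Slc6a13 and Slc22a6, and in 7.06% of all 32851 windows of the table. These 2 sequences are shown because they held the letters, and both genes encode membrane transporters shared by the choroid plexus and the meninges. Capitals mark the match, which on the first is read on the opposite strand (GGATTA). The match starts 67 bases before the transcript start in Slc6a13 and 54 bases before it in Slc22a6.
Slc6a13 (chr6:121300038-121300337, plus strand): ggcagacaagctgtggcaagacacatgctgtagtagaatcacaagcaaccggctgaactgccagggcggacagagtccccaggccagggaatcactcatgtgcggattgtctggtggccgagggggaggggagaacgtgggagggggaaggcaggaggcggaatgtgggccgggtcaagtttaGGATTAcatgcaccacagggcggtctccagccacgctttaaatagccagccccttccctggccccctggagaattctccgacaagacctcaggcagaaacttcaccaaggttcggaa
Slc22a6 (chr19:8617746-8618045, plus strand): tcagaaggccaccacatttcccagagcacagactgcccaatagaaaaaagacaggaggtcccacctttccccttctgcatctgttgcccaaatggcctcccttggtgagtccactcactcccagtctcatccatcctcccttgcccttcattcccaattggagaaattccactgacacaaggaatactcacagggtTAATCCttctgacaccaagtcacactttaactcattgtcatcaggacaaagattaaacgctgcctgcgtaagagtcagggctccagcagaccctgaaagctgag
A match describes the letters of the window and was not tested for binding.

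Scaled for gene length, the level was highest for Enpp2, with a mean of 35.9 ± 5.99 TPM (SD, n = 12). Slc6a13 followed at 12.0 ± 3.02 TPM and Aldh1a2 at 7.35 ± 1.69 TPM (SD, n = 12 each). Dcn (6.34 ± 0.627 TPM), Ogn (6.08 ± 1.38 TPM), Ttr (4.90 ± 6.39 TPM) and Slc22a6 (4.20 ± 0.713 TPM) came next. Lum (1.96 ± 0.499 TPM), Stra6 (1.74 ± 0.640 TPM) and Kl (0.357 ± 0.110 TPM) were lowest. The range of Enpp2, 25.2 to 43.1 TPM, lay clear of that of Slc6a13, 7.87 to 17.5 TPM. The ranges of Slc22a6 and Lum, and of Stra6 and Kl, also did not overlap, whereas every other gene's range overlapped that of its neighbour in the order. Ttr, by far the most abundant transcript of the choroid plexus epithelium itself, was lower than Enpp2 in all 12 libraries, by 1.82 times in KD replicate 1 and by 4.24 to 33.2 times in the other 11.

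**Figure D2:**
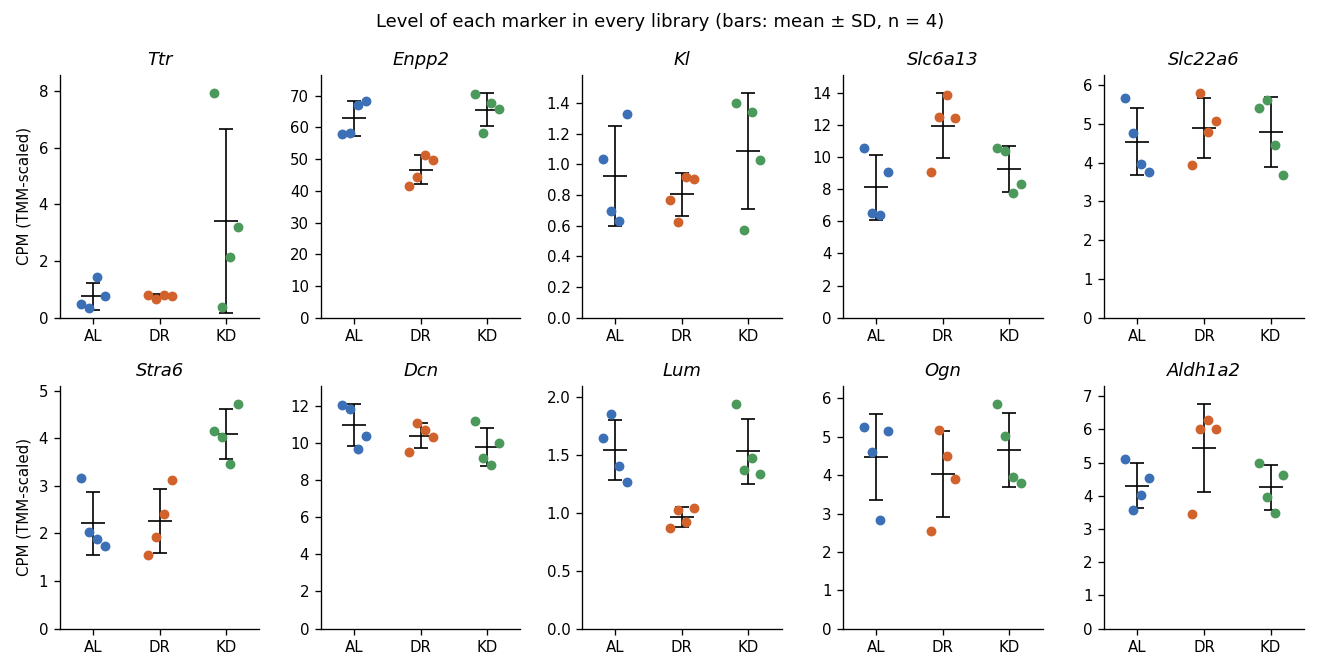
CPM of each of the 10 markers in the 4 libraries of each diet (points), with the mean and SD (black bars, n = 4), each panel on its own axis from 0. The 4 DR points of Enpp2 and of Lum lie below those of AL and of KD, and Ttr reaches 7.94 CPM in a single KD library.

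The 3 diets were compared in pairs, by edgeR's quasi-likelihood test on the 8 libraries of each pair with Benjamini-Hochberg adjustment over all genes tested and a threshold of 0.05. Differences are given as log2 fold changes with their standard error (SE). The labels do not say that each library came from a separate litter or cage, so p-values measure the spread between these samples. On DR against AL, 1 of the 10 markers was lower (Enpp2) and 0 were higher, where 1.74% of 19052 genes were lower and 1.32% higher. Without adjustment 1 of the 10 was higher and 2 were lower at p under 0.05, against 1719 and 1710 of all genes. DESeq2 called 1 higher and 1 lower, against 437 and 575 of all genes. Values of the 4 DR and 4 AL libraries did not overlap for 2 of the 10, Enpp2 and Lum, against 10.9% of all genes. On KD against AL, 0 of the 10 were higher and 0 lower, and 0% of 19036 genes were called higher and 0% lower. Without adjustment 2 of the 10 had p under 0.05, both higher on KD, and DESeq2 called 1. Over all genes 928 had an unadjusted p under 0.05, and DESeq2 called 4 higher and 6 lower. The KD and AL values did not overlap for 1 of the 10, Stra6, against 2.95% of all genes. On DR against KD, 3 of the 10 were lower (Ttr, Enpp2 and Stra6) and 0 were higher, where 2.43% of 19087 genes were lower and 2.51% higher. Without adjustment 1 was higher and 4 were lower, against 1792 and 1773 of all genes. DESeq2 called 0 higher and 3 lower, against 622 and 716 of all genes. The DR and KD values did not overlap for 3 of the 10, Enpp2, Stra6 and Lum, against 11.8% of all genes. DR against AL shares the DR libraries with DR against KD, and KD against AL shares the AL and KD libraries with the others.

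**Figure D3:**
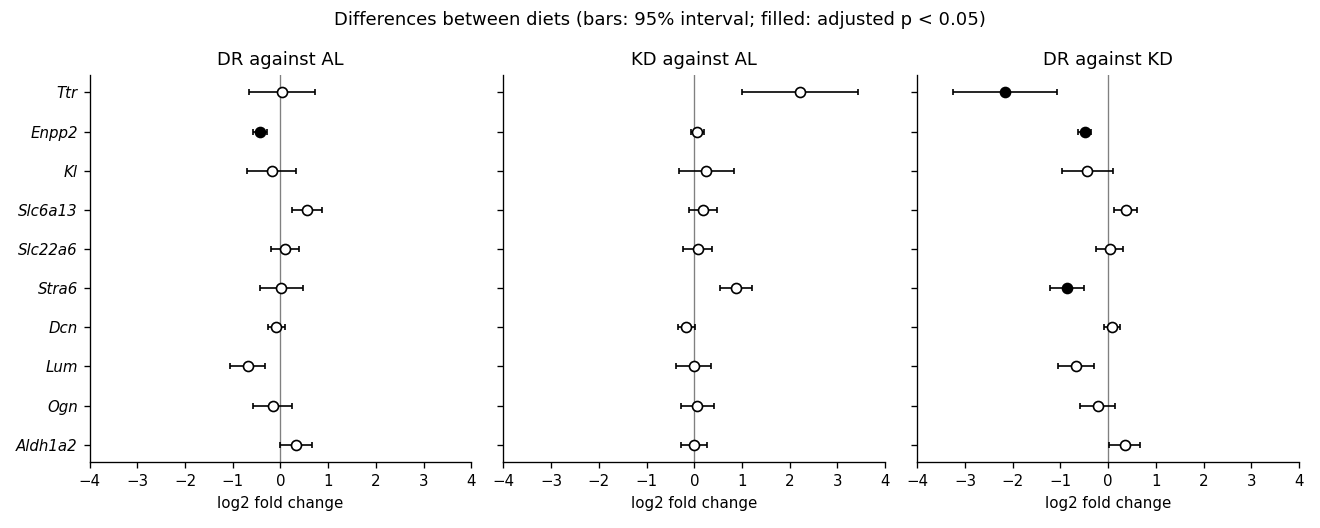
Log2 fold change of each marker in the 3 comparisons (points), with bars for the normal 95% interval from the SE and filled points where edgeR called the gene at the threshold of 0.05. Enpp2 is filled at -0.43 on DR against AL and at -0.49 on DR against KD, and no point is filled for KD against AL.

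Enpp2 (ENSMUSG00000022425.16, chromosome 15, 54838901 to 54952892, minus strand, GRCm38.p6) encodes autotaxin, a secreted enzyme that makes lysophosphatidic acid and is known from choroid plexus epithelium as well as from oligodendrocytes. It lay at 57.8, 58.3, 66.9 and 68.4 CPM in AL replicates 1 to 4. DR replicates 1 to 4 had 41.4, 44.4, 51.4 and 49.6 CPM. KD replicates 1 to 4 had 70.6, 58.2, 67.8 and 65.9 CPM. Each of the 4 DR libraries was below each of the 8 others, and AL and KD overlapped. Enpp2 was lower on DR than on AL by a log2 fold change of -0.43 (SE 0.07, adjusted p = 0.00731 in edgeR's test) and lower on DR than on KD by -0.49 (SE 0.07, adjusted p = 0.000744). Against AL, KD differed by 0.07 (SE 0.07, adjusted p = 0.994). The calls on DR held with each library left out in turn and under the 6 other settings, with adjusted p of at most 0.0294. Of its exonic bases, 6% overlap Gm26684 on the opposite strand, and the library kit does not mark strand, so reads there cannot be told apart.

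Enpp2 is also a gene of oligodendrocytes, so 12 genes of mature oligodendrocytes were read beside it. On DR against AL, 2 of the 12 were lower, where 1.74% of all genes were, and 0 higher (unadjusted, 0 were higher, and DESeq2 called 0 higher), with a median log2 fold change of -0.19 against 0.00 over all genes. Among them Ugt8a, which makes the myelin lipid galactosylceramide, was lower by -0.47 (SE 0.10, adjusted p = 0.0206 in edgeR's test). On DR against KD, where 2.43% of all genes were lower, 3 of the 12 were lower, Mag and Ugt8a among them, with a median of -0.25. The summed CPM of the 12 genes was 2355 to 2996 in AL, 2199 to 2726 in DR and 2600 to 2818 in KD, so the sums of the diets overlapped. None of the 12 was at 0 in any library. Their part in the result for Enpp2 was not tested. Of 20 tested choroid plexus genes outside the 10, 0 were called on DR against AL, where 1.32% of all genes were higher and 1.74% lower. None had an unadjusted p under 0.05, where 3429 of 19052 genes did. DESeq2 called 0, where it called 437 higher and 575 lower over all genes. The 20 leave out genes that failed the count filter, Folr1, Kcne2 and Sostdc1 among them. The summed CPM of all 30 genes of that list was 119.8 to 127.0 in AL and 119.1 to 134.1 in DR. Much of that sum was Slc4a2, at 54.6 to 66.9 CPM over the 12 libraries. Whether the oligodendrocyte and choroid plexus genes differed from each other in this was not tested.

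Ttr (ENSMUSG00000061808.4, chromosome 18, 20665280 to 20674321, plus strand) encodes transthyretin, the carrier of thyroxine and of retinol-binding protein that the choroid plexus secretes into the cerebrospinal fluid. Its counts were 19, 14, 50 and 24 in AL replicates 1 to 4. In DR they were 32, 21, 28 and 28. In KD they were 306, 13, 78 and 124. Scaled for library size, these were 0.468, 0.361, 1.43 and 0.760 CPM in AL, 0.817, 0.655, 0.805 and 0.769 CPM in DR and 7.94, 0.371, 2.13 and 3.19 CPM in KD. Of the 4 KD libraries, 3 lay above the AL and DR libraries, while KD replicate 2 lay within their range. The 4 DR libraries were the closest to each other, at 0.761 ± 0.0738 CPM (SD, n = 4), against 0.756 ± 0.482 in AL and 3.41 ± 3.24 in KD. Ttr was lower on DR than on KD by -2.16 (SE 0.56, adjusted p = 0.0332 in edgeR's test). Without KD replicate 1 the difference was -1.32 and no longer passed (adjusted p = 0.134), and it passed in 1 of the 8 fits that left out a library and in 5 of the 6 other settings. On KD against AL the difference was 2.21 (SE 0.62, adjusted p = 0.956), and on DR against AL it was 0.04 (SE 0.35, adjusted p = 0.975).

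The library with most Ttr, KD replicate 1, was the highest of the KD libraries in 8 of the 10 markers. It held 4 counts of Folr1, 5 of Kcne2 and 1 of Sostdc1, against 0 to 3, 0 to 6 and 0 to 1 in the other 11 libraries. The choroid plexus genes outside the 10 had a summed level of 112.3 to 124.4 CPM in KD, within 112.3 to 134.1 CPM over all libraries. Much of that sum was Slc4a2, at 54.6 to 66.9 CPM, a gene also known from other cell types. On DR against KD 0 of 20 were called (3 at an unadjusted p under 0.05, 0 by DESeq2), where 2.51% of all genes were higher and 2.43% lower. Over all genes 3565 of 19087 had an unadjusted p under 0.05. Their part in the result for Ttr was not tested.

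Stra6 (ENSMUSG00000032327.14, chromosome 9, 58063788 to 58153996, plus strand) encodes the membrane receptor that takes up retinol from its binding protein. The AL libraries had 3.18, 2.04, 1.89 and 1.74 CPM. The DR libraries had 1.56, 1.93, 2.41 and 3.13 CPM. The KD libraries had 4.15, 4.02, 3.47 and 4.73 CPM. All 4 KD libraries lay above all 8 others, and AL and DR overlapped almost wholly. Stra6 was lower on DR than on KD by -0.86 (SE 0.18, adjusted p = 0.0111 in edgeR's test), in each of the 8 fits that left out a library (adjusted p of at most 0.0383) and in the 6 other settings. On KD against AL the difference was as large, at 0.88 (SE 0.17), but had an adjusted p of 0.315. It passed with DESeq2 (adjusted p = 0.00475), without the filter on low counts (3.6e-06) and without AL replicate 1 (1.11, adjusted p = 0.0234 in edgeR's test). In the fit without the filter, adjusted p fell by many orders for some other markers too, at nearly the same fold change. On DR against AL the difference of Stra6 was 0.02 (SE 0.23, adjusted p = 0.979).

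Aldh1a2 (ENSMUSG00000013584.5, chromosome 9, 71215789 to 71296243, plus strand) encodes the enzyme that makes retinoic acid in meningeal fibroblasts. Its level was 5.12, 3.56, 4.01 and 4.53 CPM in the AL libraries. It was 3.45, 6.02, 6.29 and 6.01 CPM in the DR libraries. It was 4.98, 3.97, 3.47 and 4.63 CPM in the KD libraries. In this gene 3 DR libraries lay above all others, and DR replicate 1 lay below all others. The difference of DR from AL was 0.33 (SE 0.17, adjusted p = 0.337 in edgeR's test) and that of DR from KD was 0.35 (SE 0.17, adjusted p = 0.285). Without DR replicate 1 these became 0.51 (adjusted p = 0.0637) and 0.52 (adjusted p = 0.0312), the second of which passed. KD and AL differed by -0.01 (SE 0.14, adjusted p = 0.998).

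Of 16 other genes of retinol transport and retinoic acid, 12 were tested. On DR against AL, where 1.74% of all genes were lower and 1.32% higher, 1 of the 12 was lower, the retinol dehydrogenase gene Rdh10 (-0.29, SE 0.07, adjusted p = 0.0425 in edgeR's test), and 0 were higher (0 unadjusted, 0 by DESeq2), with a median of -0.04. On DR against KD, where 2.43% of all genes were lower and 2.51% higher, the retinoic acid receptor gene Rara was lower (-0.42, SE 0.07, adjusted p = 0.00371) and the retinoid X receptor gene Rxra was higher (0.27, SE 0.07, adjusted p = 0.0329), with a median of -0.08. Between KD and AL 0 of the 12 were called (2 at an unadjusted p under 0.05, 0 by DESeq2). Aldh1a1, a second gene of retinoic acid synthesis that is also known from astrocytes and other cells, had the highest mean CPM of the 16, at 93.5 to 109.6 CPM over the 12 libraries.

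Slc6a13 (ENSMUSG00000030108.14, chromosome 6, 121300227 to 121337733, plus strand), whose promoter is shown above, encodes a transporter of GABA and taurine. The AL libraries had 10.5, 6.50, 6.42 and 9.06 CPM. The DR libraries had 9.09, 12.5, 13.9 and 12.4 CPM. The KD libraries had 10.5, 10.4, 7.74 and 8.33 CPM. Again 3 DR libraries lay above all others, and DR replicate 1 lay within the range of AL and KD. Slc6a13 differed between DR and AL by 0.55 (SE 0.16), which did not pass (adjusted p = 0.0722 in edgeR's test). It passed with DESeq2 (adjusted p = 0.0118), with all 12 libraries in the fit (0.0489), without the filter on low counts (1.54e-06), without AL replicate 1 (0.72, adjusted p = 0.0325) and without DR replicate 1 (0.67, adjusted p = 0.0409). Against KD, the DR libraries differed by 0.37 (SE 0.12, adjusted p = 0.105), which passed without DR replicate 1 (0.48, adjusted p = 0.0199) and without the filter on low counts (adjusted p = 0.00179). KD and AL differed by 0.19 (SE 0.15, adjusted p = 0.994).

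Slc22a6 (ENSMUSG00000024650.4, chromosome 19, 8617996 to 8628299, plus strand) encodes an organic anion transporter, and its promoter is shown above. It lay at 5.66, 4.77, 3.96 and 3.77 CPM in AL. It lay at 3.93, 5.80, 4.80 and 5.08 CPM in DR. It lay at 5.40, 5.62, 4.46 and 3.68 CPM in KD. The 3 ranges overlapped, and the differences were 0.10 (SE 0.15, adjusted p = 0.783 in edgeR's test) on DR against AL, 0.07 (SE 0.15, adjusted p = 0.994) on KD against AL and 0.03 (SE 0.14, adjusted p = 0.942) on DR against KD, none of which passed.

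Kl (ENSMUSG00000058488.7, chromosome 5, 150952607 to 150993817, plus strand) encodes klotho, the co-receptor of a fibroblast growth factor, and is also known from neurons. With 20 to 54 counts per library it was the least abundant of the 10 per length. Its level was 1.03, 0.696, 0.631 and 1.33 CPM in AL. It was 0.766, 0.624, 0.920 and 0.906 CPM in DR. It was 1.40, 0.571, 1.34 and 1.03 CPM in KD. The diets overlapped, and the differences of -0.19 (SE 0.27) on DR against AL, 0.25 (SE 0.29) on KD against AL and -0.43 (SE 0.27) on DR against KD gave 0.774, 0.994 and 0.416 as adjusted p in edgeR's test.

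Dcn, Lum and Ogn encode small leucine-rich proteoglycans, which bind collagen fibrils in the extracellular matrix. Dcn (ENSMUSG00000019929.16, chromosome 10, 97479609 to 97518143, plus strand) encodes decorin and was the steadiest of the 10, its highest library being 1.37 times its lowest. It lay at 9.69 to 12.1 CPM in AL, 9.52 to 11.1 CPM in DR and 8.83 to 11.2 CPM in KD. Its log2 fold changes were -0.08 (SE 0.09), -0.17 (SE 0.09) and 0.09 (SE 0.09) on DR against AL, KD against AL and DR against KD, and their adjusted p were 0.689, 0.994 and 0.661 in edgeR's test.

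Lum (ENSMUSG00000036446.5, chromosome 10, 97565128 to 97572703, plus strand), the gene of lumican, is a neighbour of Dcn on the chromosome. It lay at 1.65, 1.86, 1.41 and 1.27 CPM in AL. It lay at 0.868, 1.03, 0.920 and 1.04 CPM in DR. It lay at 1.95, 1.37, 1.48 and 1.34 CPM in KD. Each DR library was below each AL and KD library, with 32 to 75 counts per library over the 3 diets. The differences were -0.69 (SE 0.19, adjusted p = 0.0647 in edgeR's test) on DR against AL and -0.67 (SE 0.19, adjusted p = 0.0567) on DR against KD, neither of which passed. With all 12 libraries in the fit both did (adjusted p = 0.0442 and 0.0468). Between DR and KD, Lum also passed with DESeq2 (0.0487) and in edgeR's test of genes averaging 1 CPM or more (0.0477). For KD against AL it was -0.02 (SE 0.19, adjusted p = 0.998).

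Ogn (ENSMUSG00000021390.6, chromosome 13, 49608046 to 49624501, plus strand) encodes osteoglycin. It lay at 5.25, 4.62, 2.84 and 5.16 CPM in AL. It lay at 2.55, 5.18, 4.51 and 3.90 CPM in DR. It lay at 5.87, 5.02, 3.96 and 3.81 CPM in KD. AL replicate 3 and DR replicate 1 were lowest, and the diets overlapped. The differences were -0.16 (SE 0.21, adjusted p = 0.758 in edgeR's test) on DR against AL, 0.06 (SE 0.18, adjusted p = 0.994) on KD against AL and -0.22 (SE 0.19, adjusted p = 0.58) on DR against KD.

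Other small leucine-rich proteoglycan genes gave 1 call. Of 11 on that list 9 were tested, and Epyc and Kera were at 0 in all libraries. Over all genes, 1.74% were lower and 1.32% higher on DR against AL, and 2.43% lower and 2.51% higher on DR against KD. Aspn and some others of this list are also on the wider meningeal list below, so the call of Aspn appears under both. Aspn, the gene of asporin, was lower on DR than on AL, at 0.960 ± 0.228 against 1.76 ± 0.206 CPM (SD, n = 4 each), by -0.86 (SE 0.20, adjusted p = 0.0309 in edgeR's test), and 0 were higher (1 unadjusted, Prelp, and 1 by DESeq2). Between DR and KD 0 of the 9 were called (2 unadjusted, 1 by DESeq2), and Aspn differed by -0.78 (adjusted p = 0.0854). The medians over the 9 were 0.07 on DR against AL, 0.05 on KD against AL and -0.02 on DR against KD.

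Of 35 tested genes of the wider meningeal list, 1 was higher on DR than on AL, where 1.32% of all genes were higher and 1.74% lower, the hyaluronan-degrading enzyme gene Cemip (0.34, SE 0.07, adjusted p = 0.0211 in edgeR's test), and 1 was lower (Aspn). On DR against KD, where 2.51% of all genes were higher and 2.43% lower, Prg4, the gene of lubricin, was higher (0.99, SE 0.21, adjusted p = 0.0132) and Alpl, of alkaline phosphatase, was lower (-0.79, SE 0.18, adjusted p = 0.0184). Between KD and AL 0 were called (2 unadjusted, 0 by DESeq2). The medians were -0.04, 0.02 and -0.02 on DR against AL, KD against AL and DR against KD, beside medians of 0.00 over all genes. The summed level of all 36 genes was 220.9 to 273.8 CPM in AL, 220.01 to 277.6 CPM in DR and 239.6 to 270.9 CPM in KD, so the sums overlapped.

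Single libraries stood low over many meningeal genes. AL replicate 3 was the lowest AL library in 23 of the 35 meningeal genes, and DR replicate 1 was the lowest DR library in 25 of them. Among the KD libraries, replicate 3 was lowest in 14 and replicate 4 in 15. How often each library was lowest over all genes was not counted. DR replicate 1 was also the lowest DR library in 8 of the 10 markers. The 4 meningeal markers took 16.7 CPM (here without TMM factors) in DR replicate 1 and 17.6 to 24.1 in the other 11 libraries. The 6 choroid plexus markers, most of whose counts were Enpp2, took 58.7 to 75.0 CPM on that scale in DR, 72.2 to 84.7 in AL and 78.5 to 100.3 in KD.

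To ask which markers rose and fell together across mice, log2 CPM were centred on the mean of each diet and correlated over the 12 libraries, with exact permutations within diets (13824 in all, two-sided). Of 45 pairs of markers, 0 passed after Benjamini-Hochberg adjustment and 9 had an unadjusted p under 0.05. The closest pair, Slc6a13 and Ogn, joined the 2 groups as placed here, although Slc6a13 encodes a transporter shared by the choroid plexus and the meninges. Within its own group Slc6a13 had r of -0.14 with Ttr, 0.16 with Enpp2, 0.29 with Kl, 0.57 with Stra6 and 0.61 with Slc22a6. Slc6a13 and Ogn had r = 0.81 (exact p = 0.0038, adjusted p = 0.152) and rho = 0.81 (exact p = 0.0069, adjusted p = 0.155), and r was 0.88 without AL replicates 2 and 3, the 2 libraries farthest from the median of Slc6a13 before centring. Slc6a13 and Aldh1a2 had r = 0.80 (exact p = 0.0069, adjusted p = 0.152), rho = 0.83 (exact p = 0.0031, adjusted p = 0.14) and r = 0.82 without those 2. Ttr and Enpp2 had r = 0.66 (exact p = 0.0115, adjusted p = 0.152), rho = 0.64 (exact p = 0.0412, adjusted p = 0.232) and r = 0.65 without KD replicates 1 and 4. The libraries left out, here and below, were chosen on levels before centring, so the most extreme after centring could remain.

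Each marker was then set against the mean log2 CPM of 6 lists of other genes, 60 relations that were added after the levels had been seen. By r, 4 passed, 2 for Ogn and 2 for Slc6a13. Ogn followed the 35 other meningeal genes with r = 0.95 (exact permutation p = 0.000506, adjusted p = 0.0101) and rho = 0.93 (exact p = 0.000506, adjusted p = 0.0152), and r was 0.85 without AL replicate 3 and DR replicate 1. Slc6a13 followed the same genes with r = 0.92 (exact permutation p = 0.00188, adjusted p = 0.0282), and rho = 0.83 did not pass (exact p = 0.00832, adjusted p = 0.125). Its r was 0.92 without AL replicates 2 and 3. In Slc6a13, 5 libraries lay below and 7 above their diet's mean with a gap between them, and the relation within each part was not tested. Of the 30 other choroid plexus genes, the 20 kept by the count filter were used. Folr1, Kcne2 and Sostdc1 were not kept, whereas Slc4a2, Otx2 and Ace, also known from other cell types, were. With these 20 genes, Ogn had r = 0.84 (exact permutation p = 0.000434, adjusted p = 0.0101), rho = 0.94 (exact p = 0.000289, adjusted p = 0.0152) and r = 0.92 without AL replicate 3 and DR replicate 1. Slc6a13 had r = 0.77 with them (exact permutation p = 0.000506, adjusted p = 0.0101), rho = 0.79 (exact p = 0.00195, adjusted p = 0.0391) and r = 0.85 without AL replicates 2 and 3.

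For Ttr and Enpp2 no relation passed. Ttr had r = 0.17 with the same 20 choroid plexus genes, which leave out Folr1, Kcne2 and Sostdc1 (exact permutation p = 0.784, adjusted p = 0.91), and rho = -0.02 (exact p = 0.963, adjusted p = 0.963). Its r was -0.51 without KD replicates 1 and 4, so the positive sign rested on those libraries. Enpp2 had r = 0.07 with the meningeal genes (exact permutation p = 0.829, adjusted p = 0.91), rho = -0.02 (exact p = 0.958, adjusted p = 0.963) and r = -0.22 without DR replicates 1 and 2. With the 12 oligodendrocyte genes Enpp2 had r = 0.76 (exact permutation p = 0.0226, adjusted p = 0.151), rho = 0.69 (exact p = 0.0376, adjusted p = 0.21) and r = 0.79 without DR replicates 1 and 2, which did not pass. Ttr had r = 0.56 with the same genes (exact permutation p = 0.0137, adjusted p = 0.113), rho = 0.74 (exact p = 0.0385, adjusted p = 0.21) and r = 0.70 without KD replicates 1 and 4, which did not pass either. Whether the correlations of Ogn and Slc6a13 differ from those of Ttr and Enpp2 was not tested.

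**Figure D4:**
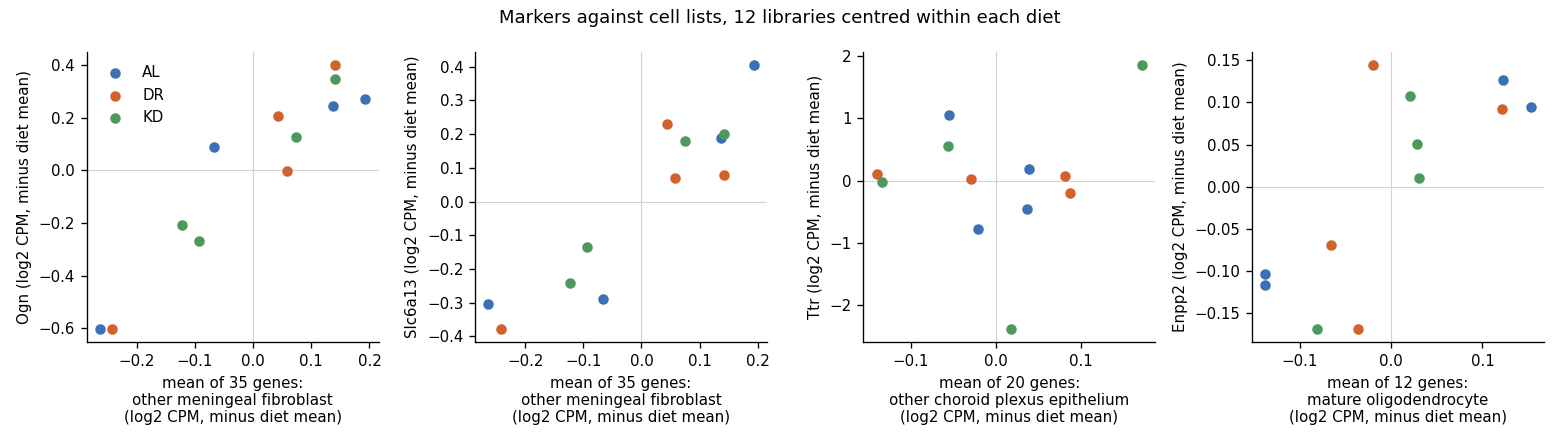
Diet-centred log2 CPM of 4 markers against the mean of a gene list, for 12 libraries coloured by diet. Ogn and Slc6a13 rise with the 35 other meningeal genes (r of 0.95 and 0.92), Ttr scatters against the 20 other choroid plexus genes kept by the count filter (r of 0.17), and Enpp2 rises with the 12 oligodendrocyte genes (r of 0.76, not past the threshold after adjustment).

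The genes most like each marker were found among 15468 genes that averaged 1 CPM or more, by the same diet-centred r over 12 libraries, given here as a description. Slc6a13 was closest to Slc22a8 (r of 0.95), an organic anion transporter gene of the meningeal list, to Mrc2 (0.90), a collagen receptor gene, and to Nnat (0.88). Aldh1a2 was closest to Slc22a12 (0.93), Slc22a8 (0.92) and Sema3d (0.91). Ogn was closest to Bmp6, Colec12 and Crabp2 (0.93 or 0.94 each), of which Crabp2 binds retinoic acid in the cell. Slc22a6 was closest to Eln (0.92), the elastin gene, to Igfbp4 (0.90) and to Pcdhga12 (0.90). Dcn was closest to Pts (0.94), to Acta2 (0.93), the smooth muscle actin gene, and to Gm10163 (0.91).

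Of the other 5 markers, Ttr was closest to Ntng2 (0.94), Zbtb37 (0.91) and Gm37833 (0.91). Enpp2 was closest to Prrg3 (0.92), Fbxl17 (0.90) and Epb41l2 (0.90). Stra6 was closest to Ptpn11 (0.90), to Itpr1 (0.89), the calcium release channel gene abundant in Purkinje cells, and to Ptprm (0.89). Kl was closest to Canx (0.95), Duox1 (0.94) and Gm49092 (0.93), and Lum to Mettl22 (0.88), Gm37422 (0.87) and Jpx (0.86). None of these values was tested.

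Spread between mice of 1 diet was measured as edgeR's biological coefficient of variation. Ttr, at 0.515, was above 99.7% of the genes kept over 12 libraries and above 99.5% of genes within 0.5 log2 CPM of its level. Ranked against genes of like level, Ogn stood above 98.6%, Slc6a13 above 98.4%, Aldh1a2 above 96.1%, Stra6 above 95.3%, Enpp2 above 94.5%, Slc22a6 above 92.1% and Kl above 87.9%. Dcn (62.2%) and Lum (23.6%) were less unusual. The 2 lowest ranks belonged to proteoglycan genes, whereas Ogn, also a proteoglycan gene, stood above 98.6%.

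Markers of other cells that could adjoin the dissected cortex were counted in the same fits. There, 1.74% of all genes were lower and 1.32% higher on DR against AL, and 2.43% lower and 2.51% higher on DR against KD. On KD against AL both shares were 0%. At an unadjusted p under 0.05, 3429 of 19052 genes passed on DR against AL and 3565 of 19087 on DR against KD. On KD against AL 928 of 19036 did. Of 7 ependymal genes tested, 0 were called in any comparison (1 at an unadjusted p under 0.05, on DR against KD, and 0 by DESeq2), and their list of 12 summed to 17.8 to 19.7 CPM in AL, with overlapping ranges in DR and KD. Tmem212, Ccdc113 and Ccdc153, named for their low counts, had 2, 20 and 27 counts over all libraries and were not tested. Hydin had the highest mean of the list, at 6.97 CPM. Of 10 mural cell genes 0 were called (2 unadjusted on DR against AL, where DESeq2 called 1, and 1 unadjusted on KD against AL). Border macrophage genes (5 tested), Schwann cell genes (3 tested) and haemoglobin genes (4 tested) also had 0 calls. At an unadjusted p under 0.05, border macrophage genes had 1 on DR against KD, Schwann cell genes 1 on each comparison with DR, and haemoglobin genes 1 on DR against AL and 4 on KD against AL, where DESeq2 called 1. Haemoglobin summed to 272.8 to 419.4 CPM in AL, 174.0 to 489.9 CPM in DR and 235.4 to 267.8 CPM in KD.

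Over all genes, 1.74% were lower and 1.32% higher on DR against AL, and 2.43% lower and 2.51% higher on DR against KD. Among cells of the cortex, Bergmann glia and astrocyte genes were lower on DR than on AL in 3 of 8 (Aqp4, Hopx and Gja1) and lower than on KD in 2 (Aqp4 and Hopx). The water channel gene Aqp4 changed most, by -0.52 (SE 0.06, adjusted p = 0.000706 in edgeR's test). Purkinje cell genes were lower on DR in 2 of 8 against either diet, Car8 among them, and endothelial genes in 1 of 10 against AL (Tie1) and in 2 of 10 against KD (Tie1 and Kdr). Granule cell genes had 0 calls of 8 on DR against AL (3 unadjusted, 0 by DESeq2) and 1 in each direction on DR against KD (Cbln3 higher and Fat2 lower). Between KD and AL, 0 genes of any of these lists were called by edgeR, and DESeq2 called 1, a haemoglobin gene.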

How the data were processed

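Poly(A) RNA of cerebellar cortex was measured in 12 libraries, 4 per diet, grouped by the treatment named in the labels, and replicates were numbered in accession order. The authors trimmed reads with Trimmomatic 0.39, aligned them with STAR 2.7.0f to GRCm38.p6, counted them per gene with featureCounts of Subread 1.6.4 and deposited raw counts without normalization. The strand setting is not given in the sources used here, and the kit does not mark strand. Symbols of 54723 of 54752 gene identifiers were matched from GENCODE.

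Low genes were dropped with edgeR's filterByExpr at a minimum count of 10 and total of 15, and TMM factors were 0.991 to 1.02. Each pair of diets (8 libraries, no covariate) was then tested by quasi-likelihood in edgeR (version 4.0.16, R 4.3.3) with Benjamini-Hochberg adjustment. All 18 pairs of libraries of 1 diet differed beyond counting noise (chi-square per gene of 4.60 to 10.5). TPM were computed from the counts and the deposited gene lengths. Log2 CPM had a prior count of 2. Correlations were computed in Python. The fit of DR against AL was tested on a simulated draw, with changes larger than that of Enpp2. Most changed genes were recovered there and the share of false calls lay above the nominal rate. Smaller changes and the other comparisons were not simulated. DESeq2 1.42.0, other scalings, other filters, a fit of all 12 libraries and fits without each library were alternatives. Depth of 31712084 to 40798644 counts limits the precision of genes with few reads, and intervals of log2 fold changes cover the spread between libraries.

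The markers and lists were chosen with earlier results of these data known. Genes named from a list were those called (at most 4 per comparison) and the 3 of highest mean CPM, and the 3 most similar to each marker, except where singled out. Values of some genes of these lists are not reported here.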

Additional observations from a re-analysis of the deposited data

Results flagged for a closer look

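Each of the 10 markers was tested for an outlying library within each diet, 30 groups of 4, with Dixon's test at its critical value for 4, on CPM. Among them 1 library stood apart, where chance gives about 1 group in 20. Aldh1a2 was at 3.45 CPM in DR replicate 1, below the other DR libraries at 6.01 to 6.29 CPM. The same library was the lowest DR library in 8 of the 10 markers and in 25 of 35 other meningeal genes. Ttr in KD replicate 1, at 7.94 CPM, did not pass this test.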

How the results depend on the processing

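No direction of a called result reversed under any alternative run. Of 417 values of single markers under alternatives, 393 kept their side of the threshold, 16 passed newly and 8 no longer passed, the cause of which was not tested. No paired analysis was possible because the labels give no shared replicate numbers. On DR against AL, markers called higher numbered 1 (Slc6a13) with DESeq2, without the low-count filter and with all 12 libraries in the fit, and 0 to 1 with a library left out, and markers called lower numbered 2 with all 12 libraries. On KD against AL, those called higher numbered 1 (Stra6) with DESeq2, 2 (Ttr and Stra6) without the low-count filter and 0 to 1 with a library left out. On DR against KD, those called higher numbered 1 (Slc6a13) without the low-count filter and 0 to 2 with a library left out (Slc6a13 and Aldh1a2 without DR replicate 1). Ttr on DR against KD lost its call with DESeq2 (adjusted p = 0.061) and in 7 of 8 fits without a library (up to 0.134, without KD replicate 1). The 24 shares of counts and the 4 correlations past the threshold kept theirs with other denominators, scalings or a prior count of 0.5. Fits without a library compare 3 with 4 libraries. Without the low-count filter, adjusted p of some markers fell by many orders at nearly the same fold change. On DR against AL, in edgeR's test, it went from 0.00731 to 4.15e-11 for Enpp2 and from 0.0722 to 1.54e-06 for Slc6a13. Why it fell was not tested. Kl and Lum had at most 75 counts per library, and whether depth limited their tests was not tested.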
